A study of Mus musculus with 9 samples.

Results

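The genes described here are *Kiss1*, *Tac2*, *Pdyn*, *Tacr3*, *Esr1*, *Pgr*, *Prlr*, *Ghrh* and *Th*, which encode peptides, receptors and the dopamine-synthesising enzyme of neurons in and around the arcuate nucleus. They were matched by gene symbol, 9 of the 35975 genes quantified. The tissue was the mediobasal hypothalamus (MBH), the basal block around the arcuate nucleus, taken for RNAseq from wild-type C57Bl/6 male mice at postnatal day 21. The CTRL group (n = 4 litters) came from dams that drank plain water. The Emul group (n = 5 litters) came from dams whose water held 1% carboxymethylcellulose (CMC) and 1% polysorbate 80 (P80), given before mating and through gestation and lactation. The pups stayed with their dams until weaning, so exposure through the dam and any direct intake of her water cannot be told apart. The values are of bulk tissue, in which fewer cells of a type and less RNA per cell cannot be told apart.

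Arcuate KNDy neurons make kisspeptin (*Kiss1*), neurokinin B (*Tac2*) and dynorphin (*Pdyn*), and they drive the pulsatile release of gonadotropin-releasing hormone (GnRH). Neurokinin B acts on these cells through its receptor (*Tacr3*) to start a pulse, and dynorphin helps to end it. Sex steroids feed back on the network through the estrogen receptor alpha (*Esr1*) and the progesterone receptor (*Pgr*). Dopamine neurons of the same nucleus, marked by tyrosine hydroxylase (*Th*), the rate-limiting enzyme of dopamine synthesis, restrain prolactin secretion and sense prolactin through its receptor (*Prlr*). GHRH neurons (*Ghrh*) drive the release of growth hormone. None of these genes is confined to the arcuate nucleus: *Pdyn*, *Esr1*, *Pgr*, *Prlr* and *Th* are also made elsewhere in the hypothalamus or nearby brain.

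For *Kiss1*, *Ghrh* and *Prlr* the sequence shows what was counted, so it is given first. Reads of *Kiss1* cannot be assigned to *Kiss1* by sequence alone, because the annotation holds a further gene, *Gm28040*, on the same strand of chromosome 1, listed under 2 gene identifiers and running through *Kiss1*. *Kiss1* lies at chr1:133321875-133329901 and the main transcript of *Gm28040* (Gm28040-205) at chr1:133323966-133329722 (GRCm38/mm10, + strand). The last 60 coding bases of the main *Kiss1* transcript and of Gm28040-205 are shown to make that plain, with the stop codon in capitals:
Kiss1-201: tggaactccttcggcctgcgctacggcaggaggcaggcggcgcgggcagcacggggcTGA
Gm28040-205: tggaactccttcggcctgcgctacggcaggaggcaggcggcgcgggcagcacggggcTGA
Both end on the same codons, and all 749 stretches of 31 bases (the word length used to assign reads) in Kiss1-201 also occur in a *Gm28040* transcript. The same holds for all 466 of them in Kiss1-202, whereas 75.1% of the 626 in Gm28040-205 occur in *Kiss1*.

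*Ghrh* has 3 quantified transcripts, each with its own annotated start site. The 100 bases before the starts of the 2 protein-coding transcripts, which lie 9229 bases apart on chromosome 2, are shown because most counts fell on one of them. TATAAA, the core of a TATA box, is in capitals (mouse GRCm38.p6, RefSeq promoter windows, - strand).
Proximal start, Ghrh-202, chr2:157337427-157337526: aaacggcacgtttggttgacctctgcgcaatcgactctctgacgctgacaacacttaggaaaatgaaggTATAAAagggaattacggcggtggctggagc
Distal start, Ghrh-201, chr2:157346656-157346755: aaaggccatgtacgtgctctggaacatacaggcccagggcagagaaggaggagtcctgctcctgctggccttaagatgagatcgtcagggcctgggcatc
TATAAA begins at position -31 from the proximal start, and these letters are not in the 300-base window around the distal start on either strand. Of the 32851 promoter windows of that length, 8.32% hold TATAAA on the forward strand and 13.6% on either strand.

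*Prlr* makes receptor forms that share the hormone-binding part and differ in the tail inside the cell. The 60 coding bases around the point where the long form (Prlr-202, 608 codons) and a short form (Prlr-205, 310 codons) part are shown, with the bases after that point in capitals:
Prlr-202: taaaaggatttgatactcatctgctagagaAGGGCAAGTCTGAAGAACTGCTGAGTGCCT
Prlr-205: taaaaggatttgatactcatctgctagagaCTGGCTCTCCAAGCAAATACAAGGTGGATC
The coding sequences are the same over the first 841 bases, or 280 codons. Reads over the separate ends can therefore be told apart, which is not the case for *Kiss1*.

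Libraries held between 28245360 and 46067534 estimated counts, with CTRL 3 the lowest. Levels of different genes were compared in TPM, an abundance per length that sums to the same total in each library, added up over the transcripts of a gene. *Tac2* was the highest of the 9, at 66.2 ± 6.41 TPM (mean ± SD over all 9 libraries), followed by *Th* at 44.6 ± 15.3, *Pdyn* at 43.6 ± 4.96 and *Ghrh* at 32.3 ± 5.26 TPM. A gap followed, since *Ghrh* was above *Pgr* in 9 of 9 libraries and their ranges did not overlap. The receptors were lower, with *Pgr* at 11.0 ± 0.807, *Prlr* at 10.7 ± 1.38, *Tacr3* at 9.02 ± 0.946 and *Esr1* at 5.55 ± 0.852 TPM. *Kiss1* counted together with *Gm28040* was the lowest, at 3.60 ± 0.948 TPM. Several neighbours in this order did not differ beyond their spread. *Th* was above *Pdyn* in 5 of 9 libraries, *Pgr* above *Prlr* in 6 and *Prlr* above *Tacr3* in 7. *Tac2* was above *Th* in 8 of 9, while *Pdyn* exceeded *Ghrh*, and *Esr1* exceeded *Kiss1* with *Gm28040*, in each of the 9 libraries although the ranges overlapped. The range of *Tacr3* lay above that of *Esr1*.

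Limma-voom was used to test Emul against CTRL over the 15340 genes with a CPM (counts scaled to library size) above 1 in at least 4 libraries, and *Kiss1* as annotated was the only one of the 9 genes that did not pass this filter. None of the other 8 passed a threshold. At an unadjusted p-value under 0.05, 0 of 8 were called, where 15.8% of all genes tested were. At the cutoff that also asks for a change above 1.5-fold, 0 of 8 were called against 0.469% of all genes, and after Benjamini-Hochberg adjustment 0 of 8 against 0.117%. CTRL and Emul libraries overlapped for each of the 8, whereas 6.60% of all genes showed no overlap. The fold changes were positive for 4 and negative for 4, and the median log2 fold change was -0.01 against 0.0015 over all genes. How closely each gene is bounded differed, so the values of each follow, as log2 CPM per library and as Emul over CTRL on the log2 scale, with standard error (SE) and 95% interval.

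**Figure D1:**
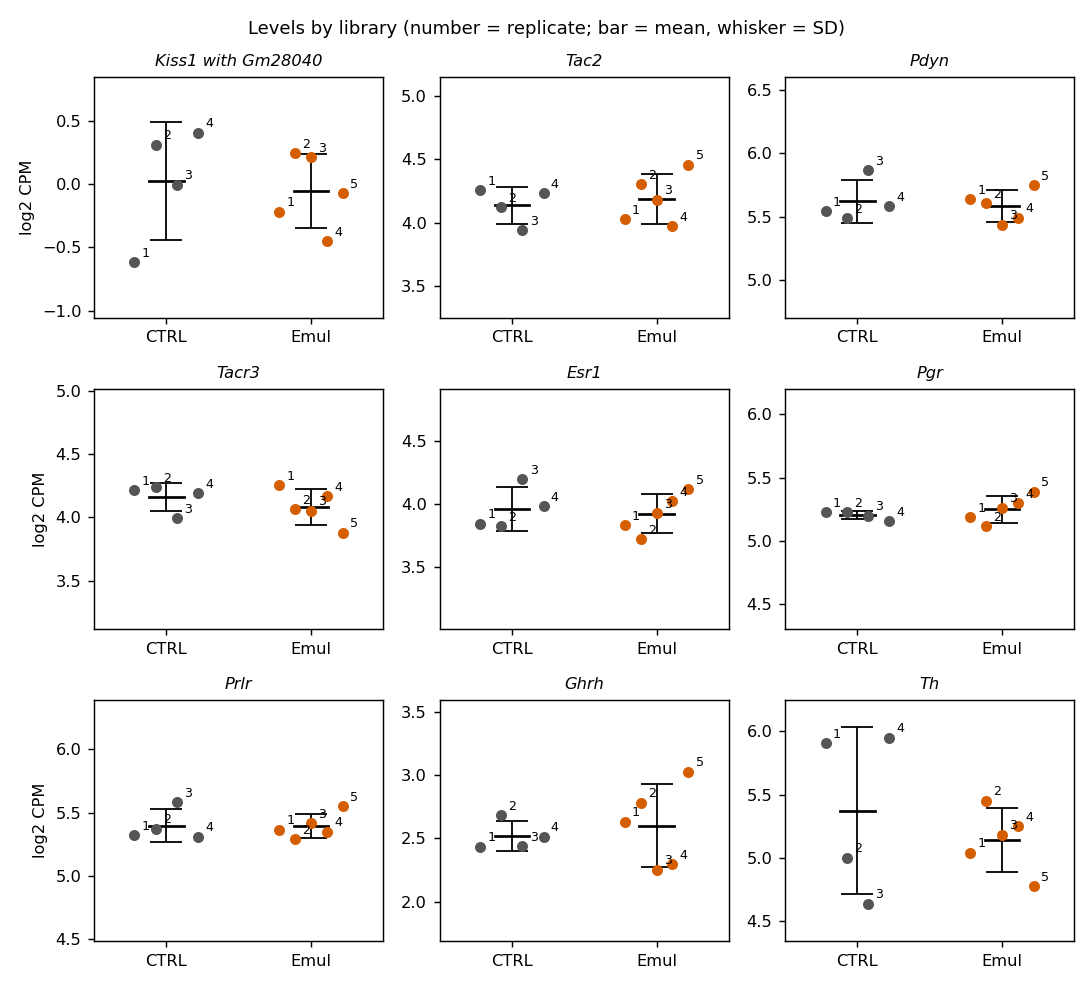
Log2 CPM (y axis) of the 9 genes in each of the 4 CTRL (grey) and 5 Emul (orange) libraries, numbered by replicate, with the mean (bar) and SD (whisker). Every panel spans the same log2 range, and the groups overlap in each, with *Th* in CTRL spread from 4.64 to 5.95 and *Pgr* held between 5.12 and 5.39 over all libraries.

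*Kiss1*, the precursor of kisspeptin, was barely counted under its own name. Its 2 transcripts received at most 13.9 estimated counts, in Emul 2, and 0 in CTRL 1, CTRL 4, Emul 1 and Emul 5. Nearly all counts over the gene stood under *Gm28040*. Summed over both, the counts were 23, 49, 27 and 55.1 in CTRL 1 to 4 and 32.0, 47.0, 41.8, 30.9 and 32.6 in Emul 1 to 5. On the log2 CPM scale the sum was -0.62, 0.31, -0.0034 and 0.41 in CTRL, and -0.22, 0.24, 0.21, -0.45 and -0.071 in Emul. CTRL 1 was the lowest and CTRL 4 the highest library, so the Emul values lay inside the CTRL range. The sum changed by -0.11 on the log2 scale (SE 0.240, 95% interval -0.63 to 0.42, adjusted p = 0.87 by limma-voom), and the two-sided exact permutation test gave p = 0.76. At these counts a change of 1.5-fold downwards was within the interval and was not detectable. The authors' own log2 CPM table lists *Kiss1* between -0.53 and 0.44. It differed from the sum of both genes by at most 0.091 in any library, but from *Kiss1* alone by up to 4.72.

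**Figure D2:**
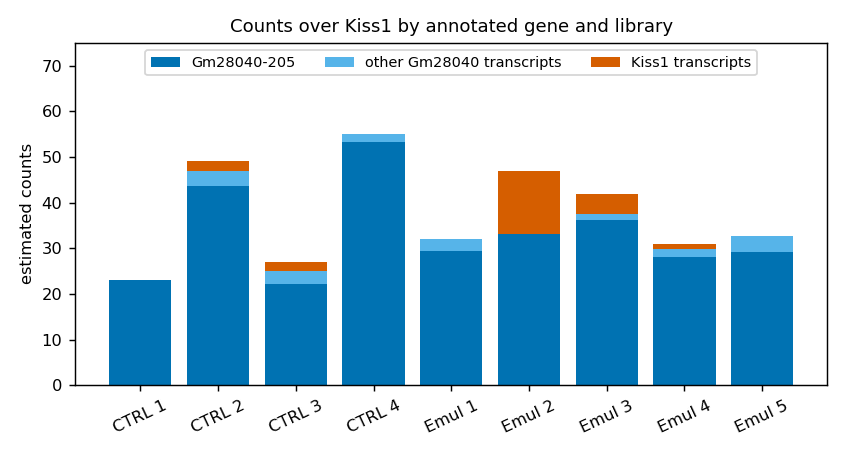
Estimated counts (y axis) over the *Kiss1* gene in each library (x axis), stacked by the annotated transcript that received them: Gm28040-205 (dark blue), other *Gm28040* transcripts (light blue) and the 2 *Kiss1* transcripts (orange). Most of each bar is Gm28040-205, and the orange part is at most 13.9 counts, in Emul 2.

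*Tac2*, which encodes neurokinin B, stood at 4.25, 4.12, 3.94 and 4.23 log2 CPM in CTRL 1 to 4 and at 4.03, 4.30, 4.18, 3.97 and 4.46 in Emul 1 to 5. The lowest library was CTRL 3 and the highest Emul 5, and the CTRL and Emul ranges overlapped from 3.97 to 4.25. Emul over CTRL came to a log2 fold change of 0.029 (SE 0.098, 95% interval -0.18 to 0.24, adjusted p = 0.92 by limma-voom; exact permutation p = 0.68). Its main transcript, Tac2-201 on chromosome 10, held 97.4% of its counts.

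*Pdyn*, the dynorphin precursor, was at 5.54, 5.49, 5.87 and 5.58 log2 CPM in CTRL and 5.64, 5.60, 5.43, 5.49 and 5.75 in Emul. CTRL 3 was the highest library here and the other 3 CTRL libraries lay within the Emul range. The groups differed by a log2 fold change of -0.027 (SE 0.077, 95% interval -0.20 to 0.14, adjusted p = 0.90 by limma-voom; exact permutation p = 0.74). Pdyn-201 held 98.1% of the counts.

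*Tacr3*, the neurokinin B receptor, is quantified as a single transcript on chromosome 3. It stood at 4.21, 4.24, 3.99 and 4.19 log2 CPM in CTRL and 4.25, 4.06, 4.05, 4.17 and 3.88 in Emul. The highest and the lowest library, Emul 1 and Emul 5, were both of the Emul group. Between groups the log2 fold change was -0.082 (SE 0.075, 95% interval -0.25 to 0.080, adjusted p = 0.63 by limma-voom; exact permutation p = 0.43).

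*Ghrh*, the releasing hormone for growth hormone, was at 2.43, 2.68, 2.44 and 2.51 log2 CPM in CTRL and 2.63, 2.78, 2.25, 2.29 and 3.03 in Emul. The Emul libraries were spread on both sides of the CTRL libraries, with an SD of 0.328 against 0.116. Their means gave a log2 fold change of 0.064 (SE 0.149, 95% interval -0.26 to 0.39, adjusted p = 0.87 by limma-voom; exact permutation p = 0.65). Of its counts, 90.1% fell on Ghrh-202, which begins at the proximal start site with the TATAAA shown above, and 9.32% on Ghrh-201 from the distal start, the latter from 11.9 to 37.5 counts per library. The non-coding Ghrh-203, which starts farther upstream, held 0.550%. The 2 coding transcripts share 4 of 5 exons and the same 312 coding bases. The share on Ghrh-202 was 88.5 ± 1.32% in CTRL and 91.1 ± 4.87% in Emul (exact permutation p = 0.34, adjusted over 4 shares p = 0.68). Emul 1 was the lowest of all at 83.2%, and without it the difference was 4.62 percentage points with an unadjusted exact permutation p = 0.029. The difference was 2.63 points with all libraries, and 1.60 without Emul 5 (exact permutation p = 0.57), the lowest when each library was left out in turn.

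*Esr1*, the estrogen receptor alpha, was at 3.84, 3.82, 4.20 and 3.98 log2 CPM in CTRL and 3.83, 3.72, 3.93, 4.02 and 4.12 in Emul. CTRL 3 was the highest library and Emul 2 the lowest, with the rest interleaved. The log2 fold change was -0.024 (SE 0.091, 95% interval -0.22 to 0.17, adjusted p = 0.93 by limma-voom; exact permutation p = 0.74). Its counts lay mainly on Esr1-204 (89.7%) and on Esr1-203 (8.94%), which both code for 599 codons. The share on Esr1-204 was 91.0 ± 2.17% in CTRL and 88.6 ± 1.67% in Emul (exact permutation p = 0.11, adjusted p = 0.44). Without CTRL 4, the lowest CTRL library at 88.2%, Emul minus CTRL was -3.34 percentage points (unadjusted exact permutation p = 0.036). It was -2.39 points with all libraries and -1.60 without CTRL 2 (exact permutation p = 0.25), the smallest difference when each library was left out in turn.

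*Pgr*, the progesterone receptor and a gene that estrogen induces, was the steadiest of the 9. It stood at 5.23, 5.23, 5.20 and 5.16 log2 CPM in CTRL and 5.19, 5.12, 5.27, 5.30 and 5.39 in Emul. The CTRL libraries lay inside the Emul range. For Emul over CTRL the log2 fold change was 0.047 (SE 0.052, 95% interval -0.066 to 0.16, adjusted p = 0.70 by limma-voom; exact permutation p = 0.45). Pgr-204 took 93.0% of the counts and Pgr-203, annotated with a retained intron, 7.02%. The share on Pgr-204 was 92.9 ± 0.703% in CTRL and 93.0 ± 1.01% in Emul (exact permutation p = 0.91).

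*Prlr*, the prolactin receptor, was at 5.32, 5.38, 5.59 and 5.31 log2 CPM in CTRL and 5.37, 5.29, 5.42, 5.35 and 5.55 in Emul. CTRL 3 and Emul 5 were the 2 highest libraries, as they were for *Esr1* and *Pdyn*. The log2 fold change was 0.0034 (SE 0.062, 95% interval -0.13 to 0.14, adjusted p = 0.99 by limma-voom; exact permutation p = 0.95). The long form Prlr-202 took 90.4% of the counts, a transcript with a retained intron (Prlr-201) 6.45%, and the short form Prlr-205 shown above 1.83%. These shares are not corrected for length, and Prlr-202 has 9900 bases against 3836 for Prlr-205. The share on the long form was 90.2 ± 1.67% in CTRL and 90.5 ± 0.596% in Emul (exact permutation p = 0.79, adjusted p = 0.91).

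**Figure D3:**
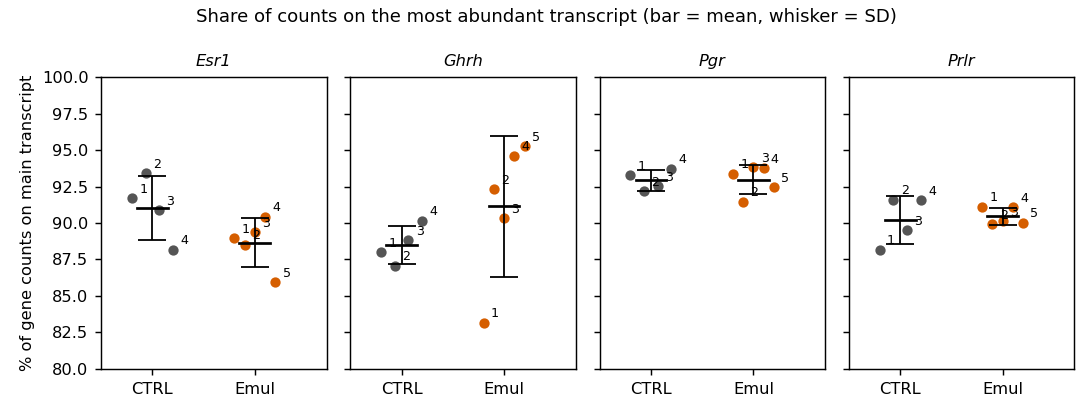
Share of a gene's estimated counts on its most abundant transcript (y axis, percent, from 80 to 100) for *Esr1*, *Ghrh*, *Pgr* and *Prlr* in 4 CTRL (grey) and 5 Emul (orange) libraries, numbered by replicate, with mean (bar) and SD (whisker). The groups overlap in all 4 panels, and Emul 1 of *Ghrh* is lowest at 83.2%.

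*Th* varied most between libraries among the 8 genes tested, within the groups more than 98.4% of all genes tested (SD within groups 0.470, against a median of 0.087 over all genes). It stood at 5.91, 5.00, 4.64 and 5.95 log2 CPM in CTRL and at 5.04, 5.45, 5.18, 5.25 and 4.78 in Emul. CTRL 1 and CTRL 4 were the 2 highest libraries of all and CTRL 3 the lowest, so the 5 Emul libraries lay inside the CTRL range. The log2 fold change was -0.26 (SE 0.239, 95% interval -0.78 to 0.26, adjusted p = 0.63 by limma-voom; exact permutation p = 0.48). Leaving out CTRL 3 gave -0.47 (unadjusted p = 0.038, adjusted p = 0.36 by limma-voom). Leaving out CTRL 4 instead gave -0.064 and leaving out CTRL 1 gave -0.096 (adjusted p = 0.94 and adjusted p = 0.89 by limma-voom). The value without CTRL 3 was the only one of 192 values of the 8 genes under other settings with an unadjusted p-value under 0.05.

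The libraries high in *Th* were also high in genes of midbrain dopamine neurons, a group outside the hypothalamus. *Slc6a3*, the dopamine transporter, which some arcuate dopamine neurons also make, was at 43.0, 9.93, 2.44 and 51.3 TPM in CTRL and 7.88, 24.7, 15.1, 19.0 and 5.23 in Emul. *En1*, a homeobox gene of the midbrain, had 117, 34, 2 and 178 counts in CTRL and 34, 89, 47, 72 and 19 in Emul. CTRL 4 and CTRL 1 led for both and CTRL 3 came last. Of 8 such markers (*Slc6a3*, *En1*, *Pitx3*, *Chrna6*, *Slc10a4*, *Foxa1*, *Lmx1b* and *Aldh1a1*, a list drawn up after the values had been seen), 8 of 8 were lowest in CTRL 3 and 6 of 8 had CTRL 1 and CTRL 4 as their 2 highest libraries. Their summed level ran from 58.8 to 199 TPM in CTRL and from 86.4 to 135 TPM in Emul. *Aldh1a1* was the largest part of it, at 49.8 TPM in CTRL 3 and 109 TPM in CTRL 4. The markers followed *Th* unequally, with Pearson's r of log2 TPM from 0.46 for *Lmx1b* and 0.60 for *Foxa1* to 0.96 for *Slc10a4*. *Nr4a2*, not among these 8, had r = 0.46, with 17.5, 19.9, 4.92 and 22.3 TPM in CTRL 1 to 4. The part of the 8 markers in the spread of *Th* was not tested. *Dbh*, which turns dopamine into noradrenaline in noradrenergic neurons that also make *Th*, had 0 to 5 counts per library.

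**Figure D4:**
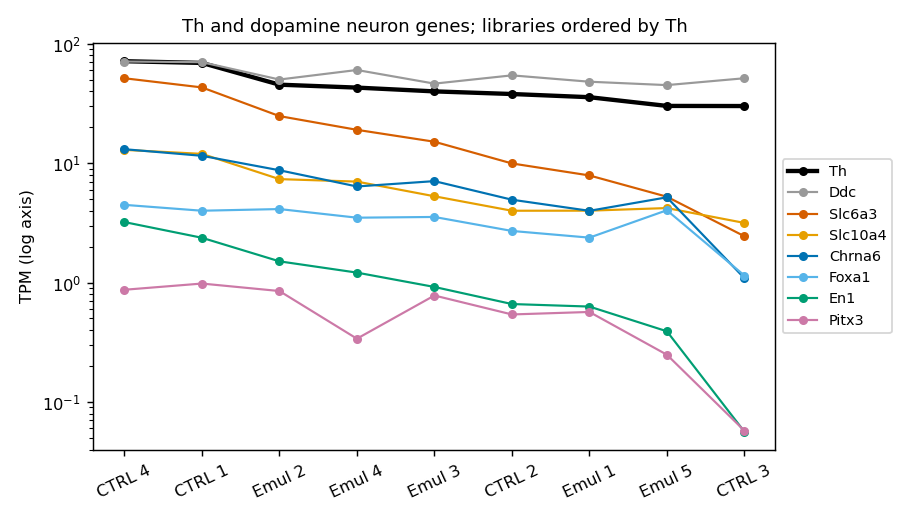
TPM (y axis, log scale) of *Th*, *Ddc* and 6 of the 8 midbrain dopamine markers in the 9 libraries, ordered from the highest *Th* (CTRL 4, 71.2 TPM) to the lowest (CTRL 3, 30.0 TPM). *Slc6a3* falls from 51.3 to 2.44 TPM along the same order, and *Ddc* only between 70.8 and 44.9 TPM over the libraries.

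For 7 of the 8 genes tested, the 95% interval lay within a 1.5-fold change in either direction (0.58 on the log2 scale), *Th* being the exception. The interval of *Kiss1* counted with *Gm28040* also reached past it. In the authors' log2 CPM table, where 13.5% of 14592 genes had an unadjusted p-value under 0.05 by limma, 0 of the 9 genes did. There the log2 fold changes ran from -0.24 for *Th* to 0.10 for *Prlr*, and for the 8 genes other than *Kiss1* the largest gap to the gene sums in a single library was 0.31, for both *Prlr* and *Esr1*.

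**Figure D5:**
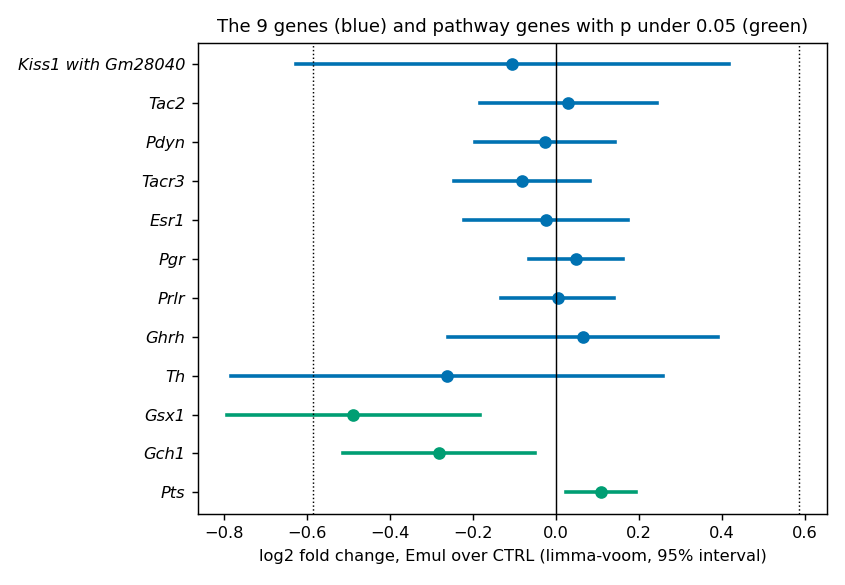
Log2 fold change of Emul over CTRL (x axis, point) with its 95% interval (line) from limma-voom for the 9 genes (blue) and for 3 pathway genes with an unadjusted p-value under 0.05 (green). Dotted lines mark a 1.5-fold change, which only the intervals of *Kiss1* with *Gm28040*, *Th* and *Gsx1* cross.

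The partners of these genes were described through 5 lists of 53 genes, of which 51 were tested. An unadjusted p-value under 0.05 was reached by 3 of 51 (5.88%, against 15.8% of all genes), with 1 higher and 2 lower, 0 past the 1.5-fold cutoff and 0 after adjustment. Their median log2 fold change was -0.01. In the KNDy and GnRH list, 0 of 9 tested genes passed, among them the kisspeptin receptor *Kiss1r* (-0.03, SE 0.084) and the dynorphin receptor *Oprk1* (-0.04, SE 0.057). *Gnrh1* itself did not pass the filter, at 3.51 to 9.50 TPM. In the list of steroid receptors, coregulators and enzymes 0 of 14 passed. In the prolactin signalling list 0 of 8 passed, and *Stat5b*, a transcription factor that the receptor activates, was at -0.092 (SE 0.043). *Cyp19a1*, the aromatase that makes estrogen, did not pass the filter.

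In the dopamine list 2 of 12 genes passed, a share near the 15.8% of all genes, and they went in opposite directions. *Gch1*, the first enzyme in making tetrahydrobiopterin, the cofactor of tyrosine hydroxylase, was at 2.60 ± 0.212 log2 CPM in CTRL and 2.35 ± 0.117 in Emul (log2 fold change -0.28, SE 0.106, adjusted p = 0.23 by limma-voom). *Pts*, the next enzyme, was at 4.72 ± 0.014 in CTRL and 4.83 ± 0.052 in Emul (log2 fold change 0.11, SE 0.039, adjusted p = 0.22 by limma-voom). *Gch1* fell and *Pts* rose at the unadjusted threshold, and neither passed the adjusted one. *Qdpr*, which recycles the cofactor, was at -0.051 (SE 0.079). CTRL 4 (5.02 TPM) and CTRL 1 (4.81 TPM) were the 2 highest libraries for *Gch1*, as for most of the midbrain dopamine markers, whose part in its fall was not tested. The call of *Gch1* was lost without CTRL 1, CTRL 4 or Emul 4 (log2 fold changes -0.24, -0.21 and -0.25) and in the authors' table (-0.25), and that of *Pts* with library size alone (0.078).

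In the list of GHRH neurons and the growth hormone axis 1 of 8 genes passed, where 15.8% of all genes did. *Gsx1*, a homeobox gene that *Ghrh* expression requires in the developing arcuate nucleus, stood at 1.36, 1.45, 1.62 and 1.81 log2 CPM in CTRL and 1.28, 1.23, 0.74, 1.06 and 1.07 in Emul. The 4 CTRL libraries were all above the 5 Emul libraries, and 6.60% of all genes likewise showed no overlap between the groups. The log2 fold change was -0.49 (SE 0.140, 95% interval -0.79 to -0.18, adjusted p = 0.16 by limma-voom), and the exact permutation p = 0.0079 is the smallest that 4 against 5 libraries allow. Leaving out each library in turn gave -0.56 to -0.39. *Ghrh* did not follow it, with a log2 fold change of 0.064, and the difference between the 2 genes was not tested.

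Markers of the arcuate nucleus and of neighbouring regions were read alongside. The 9 markers of other arcuate neurons, *Pomc*, *Agrp* and *Npy* among them, were present in every library, with a summed level of 448.0 to 508.3 TPM in CTRL and 408.3 to 598.1 TPM in Emul. Emul 5 was the highest library of this list, and the next highest Emul library, Emul 1, stood at 463.2 TPM. Emul 5 was also the highest for the ventromedial nucleus list, at 288.9 TPM against 218.3 to 231.5 TPM in CTRL. Of the 9 arcuate markers 1 passed the unadjusted threshold, *Isl1* (-0.22, SE 0.078), and of 6 for the ventromedial nucleus 1, *Fezf1* (-0.32, SE 0.101). None of the genes of these regional lists passed after adjustment, and 15.8% of all genes passed the unadjusted threshold used here. The 1.5-fold cutoff was passed by 1 gene of the lateral hypothalamus list, *Hcrt*, and 1 of the suprachiasmatic list, *Vip*, against 0.469% of all genes. Of the lateral hypothalamus list, read in the same MBH tissue, 3 of 4 were lower at the unadjusted threshold. They were *Hcrt* (-0.70, SE 0.232), *Pmch* (-0.32, SE 0.103) and *Rfx4* (-0.26, SE 0.063), the first and second of which encode the peptides orexin and melanin-concentrating hormone. *Rfx4* is counted here only as a member of the list, and whether it marks this region was not tested. In the suprachiasmatic list *Vip* was lower (-1.50, SE 0.573; exact permutation p = 0.13) and *Grp* higher (0.30, SE 0.121) among 6 tested, and in the thalamus list *Adarb1* was higher (0.21, SE 0.082) among 5. For *Vip*, 3 of 5 Emul libraries lay between 1.00 and 1.45 TPM and the other 2, at 9.76 and 12 TPM, within the CTRL range of 7.41 to 14.4 TPM. The summed level of the lateral hypothalamic list was 1505 to 1697 TPM in CTRL and 877.5 to 1515 TPM in Emul. The thalamus list, with 4 of 5 tested genes at a positive log2 fold change, summed to 119.3 to 139.6 TPM in CTRL. In Emul its sum ran from 111.0 TPM in Emul 5 to 157.0 TPM in Emul 1 and 202.1 TPM in Emul 3. For the preoptic, paraventricular and supraoptic, pituitary and choroid plexus lists 0 genes passed, and *Gh* and *Prl* of the pituitary were at most at 0.14 TPM. The paraventricular and supraoptic list summed to 603 to 1684 TPM in CTRL and 428 to 1117 TPM in Emul. CTRL 3 was its highest library, and the next highest CTRL library, CTRL 2, stood at 809 TPM. The part of these regions in the levels of the 9 genes was not tested.

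The pattern of each gene over the 9 libraries was set beside that of all genes tested, as Pearson's r of log2 CPM, given as a description since the points share libraries and depth. *Th* was most like *Slc10a4* (r = 0.98), *Slc6a3* (0.96) and *Ndnf* (0.96). *Pgr* was most like *Gria2* (0.99), an AMPA receptor subunit, then *Bhlhb9* (0.98) and *Afdn* (0.98). *Tacr3* was most like *St6gal1* (0.97), *Emp3* (0.96) and *Nxn* (0.95), and *Esr1* like *Ttc21a* (0.96), *Hrk* (0.95) and *Rsph4a* (0.95). For *Pdyn* the leading genes were *Eif2b5* (0.96) and *Tmem254c* (0.95), and for *Tac2* they were *Usp3* (0.95), *Tmem163* (0.94) and *Cnih3* (0.93). *Prlr* was most like *Crb1* (0.95), *D330045A20Rik* (0.94) and *9530077C05Rik* (0.94), and *Ghrh* like *Amer3* (0.92), *Fam219a* (0.91) and *Chmp7* (0.91). Among the genes themselves, *Prlr* went with *Esr1* (r = 0.81) and *Pdyn* (0.71) and against *Th* (-0.81) and *Tacr3* (-0.74), and CTRL 3 stood at an end of the range for *Prlr*, *Esr1*, *Pdyn* and *Th*. The KNDy peptides *Tac2* and *Pdyn* showed r = -0.024, and *Tac2* went with *Ghrh* at 0.64.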

How the data were processed

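MBH RNA from 9 P21 males (4 CTRL and 5 Emul litters) was sequenced from strand-specific mRNA libraries. The authors ran kallisto on mouse mm10 and deposited estimated counts, TPM and effective transcript lengths for 119414 transcripts per library, not otherwise normalized. The authors also deposited a gene table of log2 CPM values, of which a row without a gene name was not used. The submitters' processing notes name FastQC 0.11.9, kallisto 0.46.1 and edgeR 3.40.1, and how transcripts were summed for that table is not given in the sources used here.

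Estimated counts and TPM were summed per gene with GENCODE M21 (97.8% of transcripts matched, 1.20% to 1.27% of counts did not and were left out). The fit kept genes above 1 CPM in 4 or more libraries, scaled by TMM and used limma-voom (limma 3.58.1, edgeR 4.0.16, R 4.3.3) without covariates. The cutoff (unadjusted p under 0.05, fold above 1.5) follows the study's methods. Log2 CPM per library used a prior count of 2. Single values were compared by two-sided exact permutation over all splits into 4 and 5 libraries, whose smallest p-value is 0.0079. P-values of the 4 shares were adjusted among themselves. Shares are of estimated counts, which rise with transcript length, so they are not shares of molecules. Esr1-204, for one, has 6339 bases against 2612 for Esr1-203. The fits were tested on simulated counts. Libraries held 28245360 to 46067534 counts, so counting error is small for most of these genes. Counting error is larger for those under 300 counts, among them *Ghrh*, *Gsx1*, the minor *Ghrh* transcripts and above all *Kiss1*. Esr1-203 had 32.7 to 77.7 counts per library, and *Gch1* had 147 to 301.

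The genes named are the 9 members, list genes with an unadjusted p-value under 0.05 or that define a list but lie under the filter, the 3 genes most like each member over the libraries, and transcripts above 5% of a member's counts. A few genes under this rule are not reported here. Prlr-205, the midbrain markers, *Nr4a2*, *Kiss1r*, *Oprk1*, *Qdpr*, *Stat5b* and Ghrh-203 were chosen after values were seen, as was the summing of *Kiss1* with *Gm28040*. The members and lists were chosen with earlier results of these data known. Alternatives were DESeq2 1.42.0 and edgeR's quasi-likelihood test (both on rounded counts), limma-trend, quality weights, other scalings, filters and transcript sets, the authors' table, the replicate number as a block, and each library left out in turn.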

Additional observations from a re-analysis of the deposited data

How the results depend on the processing

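No member changed side of the adjusted threshold under any of the 24 other settings, 9 of which left out a library. At the unadjusted threshold the count of members was 0 to 1 when each library was left out (1 without CTRL 3, *Th*) and 0 otherwise. Small log2 fold changes turned sign. For *Tac2* this was so with quality weights (-0.015), library size alone (-0.00043) and the replicate block (-0.030). For *Esr1* it was so with lengthScaledTPM (0.046), the authors' table (0.039), and lengthScaledTPM on lower-numbered Ensembl transcripts (0.047). For *Prlr* it was so with edgeR (-0.0027), DESeq2 (-0.0012), limma-trend (-0.0031), library size alone (-0.026) and the block (-0.040), and for *Ghrh* with the block (-0.013). With each library left out, log2 fold changes ran from -0.034 to 0.090 for *Tac2*, -0.072 to 0.045 for *Pdyn*, -0.071 to 0.037 for *Esr1*, -0.034 to 0.056 for *Prlr*, -0.035 to 0.15 for *Ghrh*, -0.13 to -0.035 for *Tacr3*, 0.015 to 0.082 for *Pgr* and -0.47 to -0.064 for *Th*. Differences in main transcript share then ran from -0.19 to 0.44 points for *Pgr*, -0.42 to 0.72 for *Prlr*, -3.34 to -1.60 for *Esr1* and 1.60 to 4.62 for *Ghrh*, and 0 to 1 of 4 shares had an unadjusted exact p under 0.05 (*Esr1* without CTRL 4, *Ghrh* without Emul 1). Pathway genes at the unadjusted threshold numbered 3, but 5 in the authors' table, 6 with library size alone, and 3 to 6 with a library left out (6 without CTRL 2, 5 without Emul 4). The cause of these moves was not tested. Over all genes, 72 passed the 1.5-fold cutoff, against 37 with a CPM above 1 in all libraries and 688 with no filter, and 18 passed the adjusted threshold, against 339 with DESeq2 and 1 with the replicate block. Same-numbered CTRL and Emul libraries did not deviate together (r = -0.16, -0.015, 0.021 and -0.055), and 0 of 4 numbers correlated best with their own. Correlations of single libraries cannot show whether the numbers pair the litters, and the labels do not state it. With the replicate number as a block, members called stayed at 0, pathway genes at 3 with *Pts* no longer called (0.094), and *Gsx1* was at -0.48. The low counts of *Kiss1* limit what could be detected for it.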
